A study of Mus musculus with 6 samples.

Results

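The proteasome genes described here were the protein-coding genes whose symbols start with Psma, Psmb, Psmc, Psmd, Psme or Psmg followed by a number, without the immunoproteasome genes Psmb8, Psmb9 and Psmb10 and without 4 pseudogenes. The rule found 46 genes of the 56923 in the count tables. It used names only and no measured value. The genes were measured by RNA sequencing of whole kidneys from male mice, 3 Pkd1 KO and 3 control. Pkd1 KO mice were Pkd1flox/flox.Pax8rtTA.Tet-O-Cre and control mice were Pkd1flox/flox.Tet-O-Cre, so both groups carried the floxed Pkd1 alleles and the Cre transgene, and the Pax8-driven activator was in Pkd1 KO mice alone. Both groups drank doxycycline (2 mg/ml, with 5% sucrose) for 14 days, days 28 to 42 of life, and their kidneys were studied at an age of 10 weeks. Pkd1 encodes polycystin-1, whose loss from tubule cells gives cystic kidneys. The Pax8 promoter is active in renal tubule cells, so the deletion is aimed at these cells and not at vessels, stroma or immune cells; deletion by cell type was not measured here.

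The proteasome degrades proteins that carry ubiquitin. Its core particle is a barrel in which outer rings of alpha subunits gate the entry and inner rings of beta subunits hold the proteolytic sites. A regulatory particle caps the barrel: the base has ATPases that unfold the substrate and subunits that bind ubiquitin or its carriers, and the lid has the enzyme that removes the ubiquitin chain. Other caps, the activators encoded by Psme genes, open the barrel without ATP, and dedicated chaperones assemble core and base. In many cell types the subunit genes are transcribed together, and the transcription factor Nfe2l1 raises them when proteasome activity is short. In kidney tubule cells the proteasome works beside the lysosomes that digest filtered protein.

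The libraries held 51966474, 62983791 and 61614713 gene counts in Pkd1 KO kidneys and 50456629, 55548316 and 45020173 in control kidneys. Levels are given as reads per 1000000 (CPM) of a library size scaled by TMM over the genes tested, not of the gene counts above. Pkd1 itself (ENSMUSG00000032855) had 8.77, 9.003 and 10.01 CPM in Pkd1 KO and 30.01, 46.4 and 23.6 CPM in control kidneys, a log2 fold change of -1.85 ± 0.24 (SE). Every Pkd1 KO value lay below all controls. In fits with offsets for GC content and transcript length, described below, Pkd1 was still lower by the test, at -0.49 ± 0.12 (SE; edgeR adjusted p = 0.0135). With offsets from the longest coding transcript it had -0.30 and was not called (edgeR adjusted p = 0.141). The labels do not say which exons were floxed. The first principal component separated the groups with 70.4% of the variance, and control 2 lay farthest from the other controls. All Pkd1 KO libraries carried 1 sequencing project and all controls another, by the names of the deposited tables, and the effect of project cannot be told apart from that of genotype. All 9 kidney marker genes were detected in every library. Macrophage markers were higher in 3 of 5, Lyz2, C1qa and C1qb (summed over the 5, 155 to 267 CPM in Pkd1 KO and 41.5 to 76.4 CPM in control kidneys). Lyz2 made up most of the Pkd1 KO sums, with 97.5, 189 and 165 CPM in Pkd1 KO and 26.4, 12.7 and 30.2 CPM in control kidneys. Adgre1 (0.33 on the log2 scale) and Cd68 (0.26) were not called. Markers of cycling cells were higher in 4 of 4 (32.7 to 58.0 CPM in Pkd1 KO and 7.63 to 8.66 CPM in control kidneys). Of the 9 kidney markers, 6 were lower and 1, the abundant Kap, was higher (summed 44519 to 52022 CPM in Pkd1 KO and 28083 to 34398 CPM in control kidneys). Of the other marker lists, 2 of 4 T cell genes and 1 of 3 B cell genes were higher, 1 of 4 fibroblast genes was higher and 2 lower, and 3 of 3 endothelial genes were lower. With the offsets for GC content and transcript length Kap was not called and 5 kidney markers were lower, 3 of 4 fibroblast genes were higher and 1 lower, and 1 of 3 endothelial genes was lower. Col1a2 turned from called lower (-0.51 on the log2 scale) to called higher (0.62). Higher calls with offsets numbered 2 of 5 for macrophage, 1 of 4 for T cell, 1 of 3 for B cell and 4 of 4 for cycling cell markers. The part of these marker differences in the results below was not tested. In whole kidneys a change in the share of a cell type and a change in RNA per cell cannot be told apart.

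The 250 bases before the start of 4 genes are shown because these genes had the highest and the lowest fold change of core and of regulatory particle among genes with a single RefSeq promoter entry, a choice made after their values were seen. Capitals mark a match to TGACNNNGC, the core of the antioxidant response element bound by Nfe2l1 and Nfe2l2, or to CCAAT, the box bound by NF-Y, each searched on both strands. The sequences are from RefSeq, build GRCm38.p6: Psma3 at chr12:70974373-70974622 on the plus strand, Psmb5 at chr14:54617996-54618245 on the minus strand, Psmd14 at chr2:61711444-61711693 on the plus strand and Psmd2 at chr16:20651402-20651651 on the plus strand.
Psma3: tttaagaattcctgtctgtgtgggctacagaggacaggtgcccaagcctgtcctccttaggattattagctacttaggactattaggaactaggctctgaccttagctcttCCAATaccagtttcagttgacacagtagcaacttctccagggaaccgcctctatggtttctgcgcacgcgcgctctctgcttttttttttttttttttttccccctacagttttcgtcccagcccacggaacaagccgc
Psmb5: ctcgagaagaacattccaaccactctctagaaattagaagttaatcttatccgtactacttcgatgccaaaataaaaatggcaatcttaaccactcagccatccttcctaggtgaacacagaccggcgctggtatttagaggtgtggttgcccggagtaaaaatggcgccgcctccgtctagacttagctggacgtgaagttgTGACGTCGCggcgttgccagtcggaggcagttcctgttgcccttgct
Psmd14: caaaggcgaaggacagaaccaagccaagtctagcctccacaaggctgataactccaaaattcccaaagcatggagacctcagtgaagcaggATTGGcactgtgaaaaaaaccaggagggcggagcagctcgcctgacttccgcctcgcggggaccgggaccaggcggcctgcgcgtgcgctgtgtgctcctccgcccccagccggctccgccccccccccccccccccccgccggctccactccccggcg
Psmd2: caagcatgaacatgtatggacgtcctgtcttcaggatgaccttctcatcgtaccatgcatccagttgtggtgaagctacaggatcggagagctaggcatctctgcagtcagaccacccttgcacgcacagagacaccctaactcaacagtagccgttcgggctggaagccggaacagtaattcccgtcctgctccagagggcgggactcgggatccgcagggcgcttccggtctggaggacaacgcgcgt

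The window of Psma3 held a CCAAT box 139 to 135 bases before the start, and that of Psmd14 held its reverse complement, ATTGG, 159 to 155 bases before the start. The window of Psmb5 held a match to TGACNNNGC 47 to 39 bases before the start, and the letters of neither motif were in that of Psmd2. Promoter windows of 300 bases, from 250 before to 50 after the start, were found for 38 of the 46 genes. TGACNNNGC was in 6 of the 38 (15.8%: Psmb5, Psmb6, Psmc6, Psmd12, Psmd9 and Psme4), against 12.4% of all 32851 windows. CCAAT was in 14 of the 38 (36.8%), against 37.4% of all windows. No match of the motifs overlapped another in these genes. Both shares were near those of all windows. The units differ: the 38 genes had 41 windows, and a gene counted once if any of its windows held a match. TGACNNNGC was present in 2 of 19 genes that were higher in Pkd1 KO kidneys, in 1 of 3 that were lower and in 3 of 15 that were not called, and CCAAT in 8 of 19, 1 of 3 and 4 of 15; Psmb11, the remaining gene with a window, was not tested.

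Transcripts of 12 of the 15 core particle genes tested were higher in Pkd1 KO than in control kidneys, with a median log2 fold change of 0.76, while 12 of the 17 regulatory particle genes did not pass the test. With the offsets described below, 6 core genes were higher and 1 lower, and 4 regulatory particle genes were higher and 5 lower. The difference between core and regulatory particle was not tested. Of the 46 genes, 45 had enough reads to be tested by edgeR's quasi-likelihood test with Benjamini-Hochberg adjustment at 0.05; the exception was Psmb11, the thymus form of a catalytic subunit, with 1 read in 1 Pkd1 KO library and 0 in the others. Of the 45, 22 (48.9%) were higher in Pkd1 KO kidneys, 4 (8.89%) were lower and 19 were not called. Over all 18273 genes tested, 46.9% were called, 22.7% higher and 24.2% lower. Higher calls were 48.4% of all calls, and 60.5% under upper-quartile scaling. The median log2 fold change of the 45 was 0.53, against 0.03 over all genes tested, and the range was -0.98 to 1.51. The groups did not overlap in 29 of the 45, against 61.2% of all genes: Pkd1 KO values lay above all controls in 25, against 31.2% of all genes, and below them in 4, against 30.0%. The labels do not say more of how samples within a group are related, so the p-values measure the spread between these samples.

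**Figure D1:**
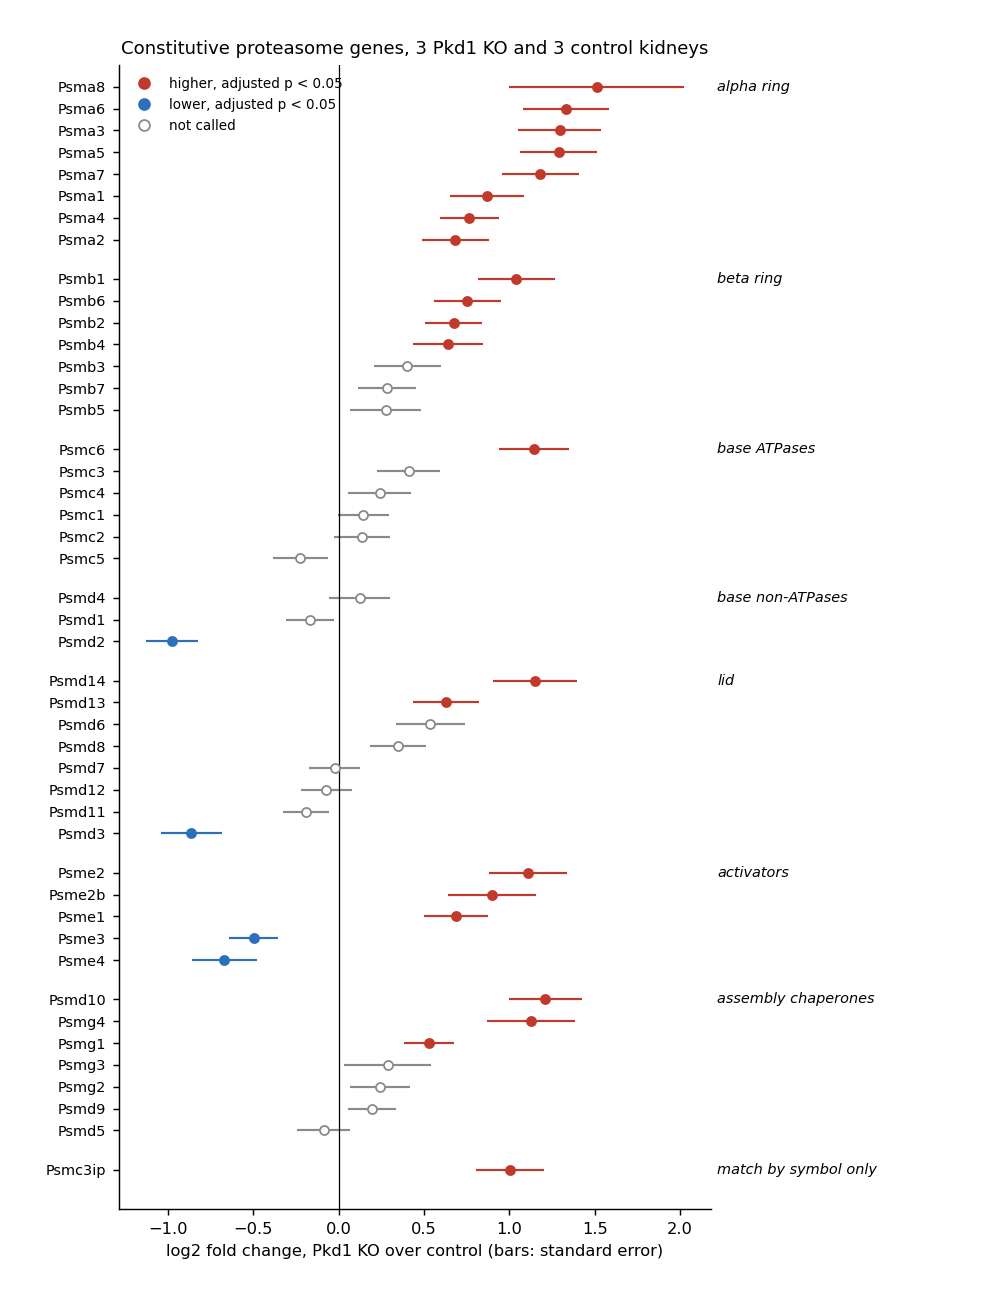
Log2 fold change (x axis, Pkd1 KO over control, bars are the standard error of the fit) of the 45 genes tested, ordered by structural class and then by fold change. All 15 core genes lie right of 0, and Psmd2 and Psmd3 of the regulatory particle lie farthest left.

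Within the core, all 8 alpha ring genes tested were higher in Pkd1 KO kidneys, against 22.7% of all genes. Their median log2 fold change was 1.24. Psma6 (ENSMUSG00000021024), with the highest level per kilobase of any core gene in Pkd1 KO kidneys, had 304, 332 and 319 CPM in Pkd1 KO and 114, 85.1 and 181 CPM in control kidneys. Its log2 fold change was 1.33 ± 0.25 (SE; edgeR adjusted p = 0.00428). All 3 Pkd1 KO values lay above all controls, and control 2 was the lowest. Psma3, whose promoter is shown above, had 242, 266 and 230.1 CPM in Pkd1 KO and 91.6, 68.8 and 140.4 CPM in control kidneys, a log2 fold change of 1.29 ± 0.24 (SE; edgeR adjusted p = 0.00417), and the groups did not overlap. Psma5 and Psma7 had log2 fold changes of 1.29 and 1.18, Psma1 and Psma4 of 0.87 and 0.76. Psma2 had the smallest: 191, 194 and 172 CPM in Pkd1 KO and 104, 91.8 and 152 CPM in control kidneys, 0.68 ± 0.20 (SE; edgeR adjusted p = 0.0202). Psma8, the form of testis, had the largest log2 fold change of the ring, 1.51 ± 0.51 (SE; edgeR adjusted p = 0.0383), at 0.404, 0.262 and 0.363 CPM in Pkd1 KO and 0.175, 0.0519 and 0.135 CPM in control kidneys. These values stood for 20, 16 and 23 reads in Pkd1 KO and 9, 3 and 6 reads in control libraries. Calls of 3 alpha genes were lost in fits that left out a library: Psma1 without control 1 (edgeR adjusted p = 0.0535), Psma2 without Pkd1 KO 1, Pkd1 KO 2 or control 1 (0.0679 to 0.0890), and Psma8 without any of 5 libraries, all but control 1 (0.0596 to 0.126).

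In the beta ring 4 of 7 genes tested (57.1%) were higher in Pkd1 KO kidneys, against 22.7% of all genes, and 3 were not called. The median log2 fold change of the ring was 0.64. Of the 3 catalytic subunits, Psmb6, the caspase-like one, was called. It had 257, 234 and 229 CPM in Pkd1 KO and 143, 106 and 179 CPM in control kidneys, with a log2 fold change of 0.75 ± 0.20 (SE; edgeR adjusted p = 0.0138), and the groups did not overlap. Psmb5, the chymotrypsin-like subunit and target of bortezomib, had 75.5, 53.6 and 73.00 CPM in Pkd1 KO and 51.6, 44.4 and 71.2 CPM in control kidneys. Its groups overlapped, and its log2 fold change of 0.27 ± 0.21 (SE) did not pass the test (edgeR adjusted p = 0.301). Psmb7, the trypsin-like subunit, had 130.2, 116 and 111 CPM in Pkd1 KO and 89.01, 84.4 and 119.9 CPM in control kidneys, with a log2 fold change of 0.28 ± 0.17 (SE; edgeR adjusted p = 0.194). Control 3 lay within the Pkd1 KO range for Psmb7. Psmb1, a subunit of the ring without a catalytic site, had the largest change: 327, 312 and 302 CPM in Pkd1 KO and 144, 107 and 206 CPM in control kidneys, 1.04 ± 0.23 on the log2 scale (SE; edgeR adjusted p = 0.00666). The other structural subunits, Psmb2, Psmb3 and Psmb4, had log2 fold changes of 0.67, 0.40 and 0.64, of which 0.40 was not called. The call of Psmb6 was lost without Pkd1 KO 1 (edgeR adjusted p = 0.0557) or control 1 (0.0551), and that of Psmb4 without control 1 or any Pkd1 KO library (0.0698 to 0.109). Without control 3, Psmb3 (0.56 on the log2 scale, edgeR adjusted p = 0.0139) and Psmb7 (0.41, 0.0274) were called higher.

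**Figure D2:**
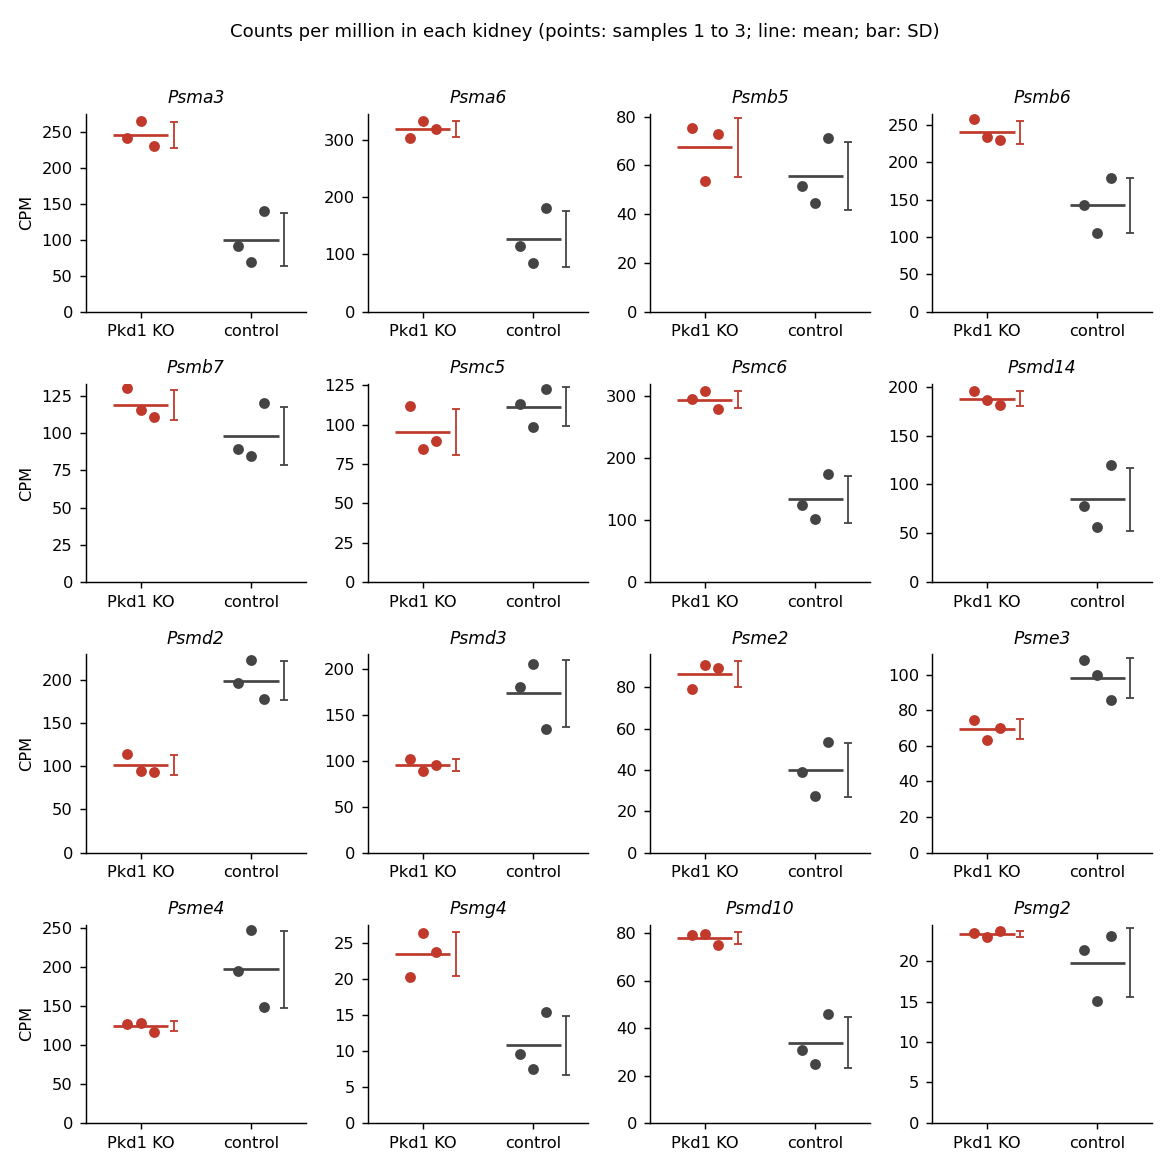
CPM (y axis, from 0) of 16 genes in each kidney, Pkd1 KO on the left and control on the right of each panel; points are samples 1 to 3, lines are means and bars are SD (n = 3). Points of Psma3, Psma6, Psmb6, Psmc6 and Psmd14 do not overlap between groups, those of Psmb5, Psmb7, Psmc5 and Psmg2 do, and Psmd2, Psmd3, Psme3 and Psme4 are lower in every Pkd1 KO kidney.

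Of the 17 regulatory particle genes, 3 were higher in Pkd1 KO kidneys (Psmc6, Psmd13 and Psmd14), 2 were lower (Psmd2 and Psmd3) and 12 were not called. These shares, 17.6% higher and 11.8% lower, were below the 22.7% and 24.2% of all genes tested. The groups did not overlap in 8 of the 17, against 61.2% of all genes. Of these 8, 3 were not called: Psmc3, Psmd6 and Psmd8, each with Pkd1 KO values above all controls. The median of the 17 was 0.13 on the log2 scale, with 10 above 0. Among the ATPases of the base, Psmc6 was the single gene of 6 that passed the test: 296, 308 and 279 CPM in Pkd1 KO and 125, 101 and 174 CPM in control kidneys, a log2 fold change of 1.14 ± 0.20 (SE; edgeR adjusted p = 0.00355). The groups did not overlap for Psmc6. Psmc5, another ATPase of the same ring, had 112, 84.3 and 89.8 CPM in Pkd1 KO and 113, 98.5 and 123 CPM in control kidneys, with overlapping groups and a log2 fold change of -0.22 ± 0.16 (SE; edgeR adjusted p = 0.27). The other ATPases Psmc1, Psmc2, Psmc3 and Psmc4 had log2 fold changes of 0.14, 0.13, 0.41 and 0.24, none of them called.

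Of the 3 base subunits that are not ATPases, 1 was lower in Pkd1 KO kidneys and 2 were not called. Psmd2 (ENSMUSG00000006998), the large scaffold that docks ubiquitin carriers, had 115, 94.9 and 93.9 CPM in Pkd1 KO and 197, 223 and 179 CPM in control kidneys. It fell by 0.98 on the log2 scale (SE 0.15; edgeR adjusted p = 0.0028), the groups did not overlap, and the call held whichever library was left out. Psmd1, the other large scaffold, had a log2 fold change of -0.17 that was not called. The ubiquitin receptor Psmd4 had 133, 101 and 107 CPM in Pkd1 KO and 103, 86.9 and 124 CPM in control kidneys, 0.12 ± 0.18 on the log2 scale (SE; edgeR adjusted p = 0.591).

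In the lid, Psmd14, the metalloprotease that cuts the ubiquitin chain from the substrate, had 196, 187 and 181 CPM in Pkd1 KO and 78.2, 56.3 and 119.5 CPM in control kidneys. Its log2 fold change was 1.15 ± 0.25 (SE; edgeR adjusted p = 0.0065), with groups that did not overlap. Psmd3, a scaffold subunit of the lid, went the other way, with 103, 88.6 and 95.6 CPM in Pkd1 KO and 181, 206 and 134 CPM in control kidneys, -0.86 ± 0.18 on the log2 scale (SE; edgeR adjusted p = 0.00552). Both calls held whichever library was left out. Psmd13 was higher (0.63 on the log2 scale), a call lost without control 1 or any Pkd1 KO library (edgeR adjusted p = 0.0614 to 0.101). The lid genes Psmd6, Psmd7, Psmd8, Psmd11 and Psmd12 had log2 fold changes of 0.54, -0.02, 0.35, -0.19 and -0.07 and were not called. Without control 3 the count of regulatory particle genes called higher was 6 in place of 3, with Psmc3, Psmd6 and Psmd8 added, and without control 1 or any Pkd1 KO library it was 2.

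All 5 activator genes were called, in both directions, against 46.9% of all genes tested. Psme1 and Psme2 encode the subunits of the interferon-inducible activator PA28 alpha/beta. Psme2 had 79.3, 90.6 and 89.4 CPM in Pkd1 KO and 39.2, 27.5 and 53.7 CPM in control kidneys, a log2 fold change of 1.11 ± 0.23 (SE; edgeR adjusted p = 0.00536), and Psme1 had a log2 fold change of 0.69. Psme2b, a gene close in sequence to Psme2 and therefore uncertain, had a log2 fold change of 0.90 at a mean of 2.77 ± 0.198 CPM in Pkd1 KO and 1.49 ± 0.467 CPM in control kidneys (SD, n = 3 each). Psme3, the nuclear activator PA28 gamma, had 74.5, 63.5 and 70.2 CPM in Pkd1 KO and 108, 100.02 and 85.9 CPM in control kidneys, -0.50 ± 0.14 on the log2 scale (SE; edgeR adjusted p = 0.0202). Psme4, the nuclear activator PA200, had 127, 129 and 117 CPM in Pkd1 KO and 195, 248 and 149 CPM in control kidneys, -0.67 ± 0.19 on the log2 scale (SE; edgeR adjusted p = 0.0191). Every Pkd1 KO value of Psme3 and Psme4 lay below all controls. Of the 5 calls, that of Psme2 held whichever library was left out. Psme1 lost its call without Pkd1 KO 2 or 3 (edgeR adjusted p = 0.0629 and 0.0633), Psme3 without Pkd1 KO 2, Pkd1 KO 3 or control 1 (0.0755 to 0.101), and Psme2b (0.0550 to 0.0762) and Psme4 (0.0551 to 0.0759) without control 1 or any Pkd1 KO library.

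Of the 7 assembly chaperones, 3 (42.9%) were higher in Pkd1 KO kidneys and none was lower, against 22.7% and 24.2% of all genes. Their median log2 fold change was 0.29. Psmg1 to Psmg4 encode chaperones of the core, which act as the pairs Psmg1 with Psmg2 and Psmg3 with Psmg4. Psmg1 had 44.98, 40.6 and 43.2 CPM in Pkd1 KO and 31.5, 25.2 and 32.7 CPM in control kidneys, 0.53 ± 0.15 on the log2 scale (SE; edgeR adjusted p = 0.0175). Its partner Psmg2 had 23.4, 23.02 and 23.8 CPM in Pkd1 KO and 21.4, 15.01 and 23.04 CPM in control kidneys, 0.24 ± 0.18 (SE; edgeR adjusted p = 0.283). The groups overlapped for Psmg2 and not for Psmg1. Psmg4 had 20.4, 26.5 and 23.9 CPM in Pkd1 KO and 9.59, 7.45 and 15.4 CPM in control kidneys, 1.12 ± 0.26 (SE; edgeR adjusted p = 0.00822). Its partner Psmg3 had 6.06, 5.54 and 5.52 CPM in Pkd1 KO and 5.30, 2.92 and 5.83 CPM in control kidneys, 0.29 ± 0.26 (SE; edgeR adjusted p = 0.376), with overlapping groups. In each pair, then, one partner passed the test, and the difference between partners was not tested.

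Psmd10, Psmd5 and Psmd9 encode chaperones of the base. Psmd10, also known as gankyrin, had 79.4, 79.98 and 75.3 CPM in Pkd1 KO and 30.7, 24.95 and 45.8 CPM in control kidneys, 1.21 ± 0.21 on the log2 scale (SE; edgeR adjusted p = 0.00349), and the groups did not overlap. Psmd5 had 67.5, 59.4 and 63.2 CPM in Pkd1 KO and 68.6, 56.1 and 77.5 CPM in control kidneys, -0.09 ± 0.15 (SE; edgeR adjusted p = 0.653). Psmd9 had a log2 fold change of 0.20 that was not called. The call of Psmg1 was lost without control 1 or any Pkd1 KO library (edgeR adjusted p = 0.0530 to 0.0713). Psmc3ip matched the rule by its symbol and is a factor of meiotic recombination, not a proteasome component. It had 7.14, 7.54 and 6.38 CPM in Pkd1 KO and 3.90, 2.75 and 3.86 CPM in control kidneys, 1.00 ± 0.20 (SE; edgeR adjusted p = 0.00473).

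To compare genes with one another, levels were divided by exon length. Summed over the core genes they were 1362, 1319 and 1281 CPM per kilobase in Pkd1 KO and 684, 545 and 953 CPM per kilobase in control kidneys. The same sum over the regulatory particle was 939, 816 and 821 in Pkd1 KO and 728, 632 and 843 in control kidneys, so that the groups were apart for the core and overlapped for the regulatory particle. The ratio of regulatory particle to core was 0.689, 0.618 and 0.641 in Pkd1 KO and 1.06, 1.16 and 0.884 in control kidneys, with means of 0.649 ± 0.036 in Pkd1 KO and 1.04 ± 0.140 in control kidneys (SD, n = 3 each). With 3 kidneys against 3 an exact permutation test cannot give a two-sided p below 0.1, and none is given. With the length of the longest transcript the means were 0.604 ± 0.030 in Pkd1 KO and 0.939 ± 0.124 in control kidneys. Both versions used CPM without the offsets for GC content and transcript length, and the ratio with offsets was not computed. The core median log2 fold change exceeded that of the regulatory particle by 0.63 without offsets and by 0.36 with them. The alpha ring contributed 719 ± 25.8 CPM per kilobase in Pkd1 KO and 334 ± 107 in control kidneys, and the beta ring 602 ± 43.1 in Pkd1 KO and 393 ± 100.02 in control kidneys. The base ATPases had 424 ± 38.0 in Pkd1 KO and 344 ± 59.1 in control kidneys, the lid had 353 ± 21.2 in Pkd1 KO and 285 ± 45.1 in control kidneys, and the other base subunits had 81.7 ± 10.5 in Pkd1 KO and 105 ± 2.50 in control kidneys (SD, n = 3 each).

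**Figure D3:**
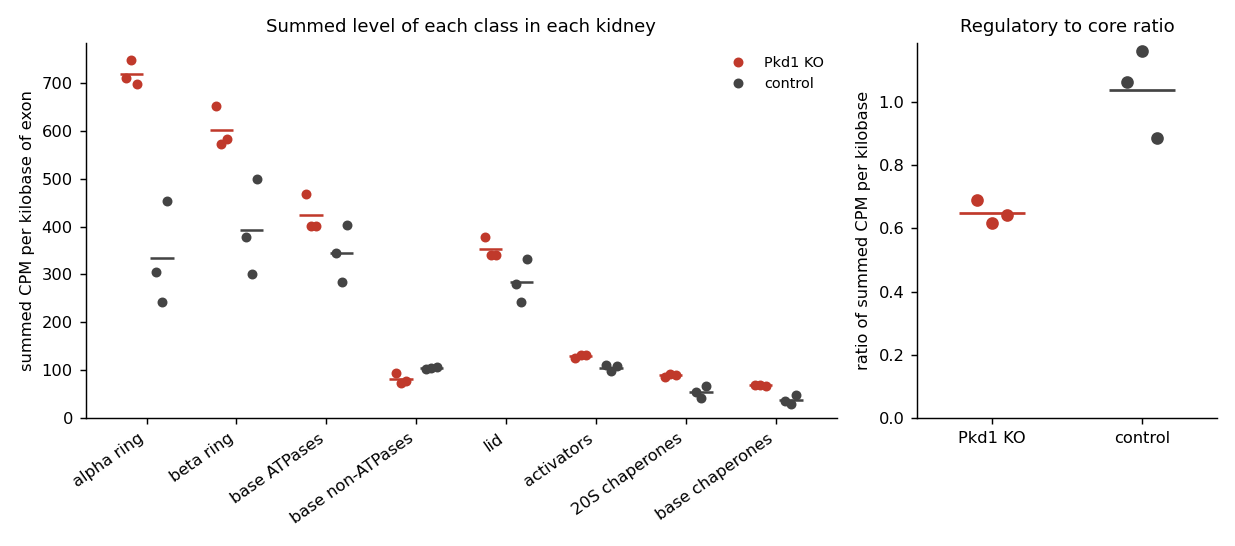
Left, summed CPM per kilobase of exon (y axis) of each structural class in each kidney, with Pkd1 KO left of control and lines at the means; right, the ratio of the regulatory particle sum to the core sum. The alpha ring is at 719 in Pkd1 KO against 334 in control kidneys, and the ratio is below 0.7 in every Pkd1 KO kidney and above 0.8 in every control. The values carry no offsets for GC content or length.

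Subunits that take equal numbers of places in the particle differed in transcript level per kilobase of exon. The length used counts all annotated exons and can exceed the longest transcript. For Psma1 it was 2952 bases against 1201, and for Psmd11 6383 against 2975. The ranks and coefficients of variation below depend on this length and were not computed with the longest transcript. In Pkd1 KO kidneys Psma6 (258 ± 11.8 CPM per kilobase), Psmb4 (173 ± 13.6) and Psmb6 (128 ± 8.11) were the highest core genes and Psmb7 (34.7 ± 2.97) the lowest apart from Psma8 and Psmb11. In control kidneys the mean levels of these genes were 103 ± 39.6 for Psma6, 111 ± 30.6 for Psmb4, 76.2 ± 19.7 for Psmb6 and 28.6 ± 5.64 for Psmb7, and the lowest were Psma5 (25.3 ± 8.67) and Psma3 (25.8 ± 9.39), whose spreads overlapped with that of Psmb7 (SD, n = 3 each). In the regulatory particle Psmc3 had 101 ± 8.50 CPM per kilobase in Pkd1 KO and 76.1 ± 16.98 in control kidneys, while Psmd11 had 12.6 ± 1.34 in Pkd1 KO and 14.4 ± 0.588 in control kidneys. The coefficient of variation over 14 core genes, without Psma8 and Psmb11, was 60.1% to 65.2% in the Pkd1 KO libraries and 51.6% to 55.0% in the controls. Over the 17 regulatory particle genes it was 49.9% to 52.8% in Pkd1 KO and 43.9% to 44.2% in control libraries.

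The controls differed among themselves in an order that these genes shared. All 15 core genes tested had their lowest control value in control 2 and 14 had their highest in control 3. Over all 18273 genes, of either direction, the counts were 7334 and 7233. Of the 22 genes called higher, 21 were lowest in control 2 among the controls. The 4 genes called lower were all lowest in control 3, and 3 of them were highest in control 2. On the first principal component control 2 (92.6) lay farthest from the Pkd1 KO libraries (-66.4 to -52.4) and control 3 (24.2) nearest. Genes higher in Pkd1 KO kidneys would thus tend to be lowest in control 2, and lower genes highest there. The order over all genes called higher or lower was not counted, so it cannot be called particular to proteasome genes. The median coefficient of variation over the proteasome genes was 7.17% among Pkd1 KO and 24.0% among control kidneys, and over all genes tested it was 10.5% among Pkd1 KO and 22.1% among control kidneys. Without control 2 the median log2 fold change of the core was 0.62, against 0.76 with it, and all 15 genes stayed above 0. Among Pkd1 KO kidneys, Pkd1 KO 1 was the highest in 31 of the 45 proteasome genes, in 16 of 17 of the regulatory particle and in 9 of 15 of the core, against 6306 of all 18273; the difference between the classes was not tested.

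Transcript length and GC content can shift counts differently in each library, so a second edgeR fit carried per-library offsets for both. The proteasome genes are short: 35 of the 45 had exons below the median of 3787 bases, and 21 were below the median GC content. With offsets, 34.8% of all genes were called, 16.8% higher and 18.1% lower. Of the 45 proteasome genes 16 were called higher and 8 lower, and the median log2 fold change was 0.18, against -0.01 over all genes. Of the 22 higher calls, 13 remained and 9 were not called: Psma1, Psma2, Psma4, Psma8, Psmb2, Psmb4, Psmc6, Psme2b and Psmg1. Of the 4 lower calls, those of Psmd2, Psme3 and Psme4 remained, Psmd3 was not called, and no call turned round.

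By class, the offsets left the core with 6 genes higher and 1 lower and a median of 0.40, and the regulatory particle with 4 higher and 5 lower and a median of 0.04. The core genes called higher in both fits were Psma3 (0.68 on the log2 scale with offsets), Psma5 (0.71), Psma6 (0.64), Psma7 (1.60), Psmb1 (1.11) and Psmb6 (0.45). Psma2 had -0.06 and Psmb5 -0.11 with offsets, neither called, and Psmb7 was lower by the test (-0.41; edgeR adjusted p = 0.0319). Psmd14 stayed higher (0.57) and Psmd2 stayed lower (-0.86), while Psmc6 had 0.24 and Psmd3 -0.20, neither called. Psmc5 (-0.69), Psmd11 (-0.63), Psmd12 (-0.39) and Psmd7 (-0.34) were called lower with offsets alone, and Psmc3 (0.55), Psmd8 (0.41) and Psmd9 (0.70) higher with offsets alone. Psme1 (0.80), Psme2 (0.85), Psmd10 (0.39) and Psmg4 (0.52) remained higher. When the offsets were built on the longest coding transcript, an alternative chosen after seeing the data, the core median was 0.21 with 9 of 15 genes above 0, and the median over the 45 genes was 0.01. The median of the core exceeded that of the regulatory particle by 0.63 on the log2 scale without offsets and by 0.36 with them.

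**Figure D4:**
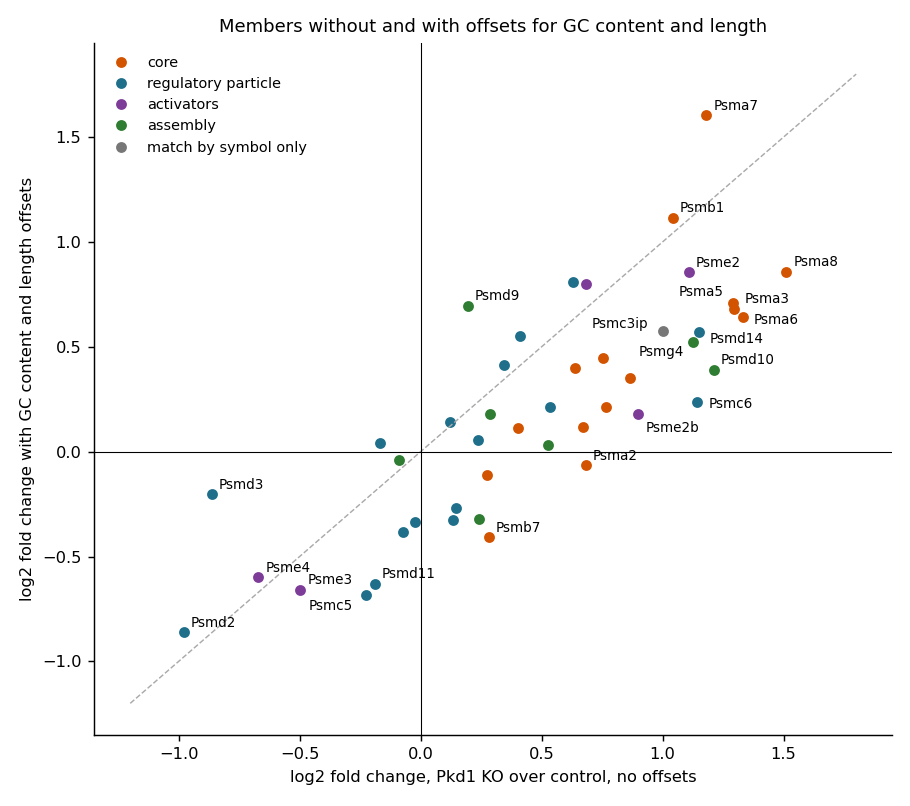
Log2 fold change (Pkd1 KO over control) of the 45 genes without offsets (x axis) and with offsets for GC content and length (y axis), coloured by class; the dashed line marks equal values. Most core genes lie below the line, Psma7 and Psmb1 lie on or above it, and Psmd2, Psme3 and Psme4 stay below 0 on both axes.

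Other genes of the ubiquitin and proteasome pathway, a list of 36 of which 35 were matched and tested, held more lower than higher calls. Of the 35, 6 were higher in Pkd1 KO kidneys, 13 were lower and 16 were not called, with a median log2 fold change of -0.10. Over all genes tested, 22.7% were higher and 24.2% lower. Without Pkd1 KO 2 or 3 the list had 3 higher and 8 lower, and without control 1 it had 8 lower. With offsets 4 were higher and 10 lower, against 16.8% and 18.1% of all genes. Pomp, the maturation factor of the core, had 202, 209.7 and 191 CPM in Pkd1 KO and 102, 77.5 and 137 CPM in control kidneys, 0.93 on the log2 scale (edgeR adjusted p = 0.00694), and was also higher with offsets (1.07). Adrm1, a ubiquitin receptor of the base (-0.63), and Ecpas, a proteasome adaptor (-0.43), were lower; with offsets they had -0.07 and -0.13 and were not called.

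Of the 6 transcriptional regulators on the list, 3 were lower and none passed the test as higher, against 24.2% and 22.7% of all genes. Nfe2l1 had 90.6, 87.3 and 96.9 CPM in Pkd1 KO and 208, 248 and 160.0 CPM in control kidneys, a log2 fold change of -1.16 ± 0.18 (SE; edgeR adjusted p = 0.0027), and -0.51 with offsets (edgeR adjusted p = 0.00933). Ddi2, the protease that activates the Nfe2l1 protein, was lower as well (-1.25, and -0.71 with offsets). Hcfc1, a cofactor of transcription factors, was lower (-1.32), with -0.35 and no call with offsets. Nfe2l2, the regulator of antioxidant genes, had 77.7, 93.3 and 86.4 CPM in Pkd1 KO and 97.1, 85.3 and 88.4 CPM in control kidneys, with overlapping groups and a log2 fold change of -0.07 ± 0.14 (SE; edgeR adjusted p = 0.674).

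Of the 7 genes for shuttle factors, which carry ubiquitinated proteins to the proteasome, 5 were lower and none was higher. Over all genes tested, 24.2% were lower and 22.7% higher. Log2 fold changes among the 5 were -0.98 for Ubqln2, -0.74 for Rad23b, -0.60 for Ubqln1 and -0.49 for Ubqln4. With offsets 4 were lower, and Ubqln4 had 0.04 and was not called (edgeR adjusted p = 0.779). Vcp, the unfoldase that extracts ubiquitinated proteins from complexes, was lower (-0.91; edgeR adjusted p = 0.00659), as was its cofactor Nploc4 (-0.78), while the cofactor Ufd1 was higher (0.41). With offsets Vcp stayed lower (-0.75), and Nploc4 (-0.35; edgeR adjusted p = 0.0591) and Ufd1 (0.29; edgeR adjusted p = 0.0646) were not called. Of the ubiquitin genes, Rps27a, which encodes ubiquitin fused to a ribosomal protein, was higher (1.38, and 0.70 with offsets). The ubiquitin-activating enzyme Uba1 was lower (-0.76, and -0.43 with offsets). Its relative Uba6 was higher (0.39), but had -0.13 with offsets and was not called (edgeR adjusted p = 0.441). Calls of Adrm1, Ecpas, Ubqln1, Ubqln4, Ufd1, Uba6 and Psmb8 were each lost in 3 to 5 of the 6 fits that left out a library.

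**Figure D5:**
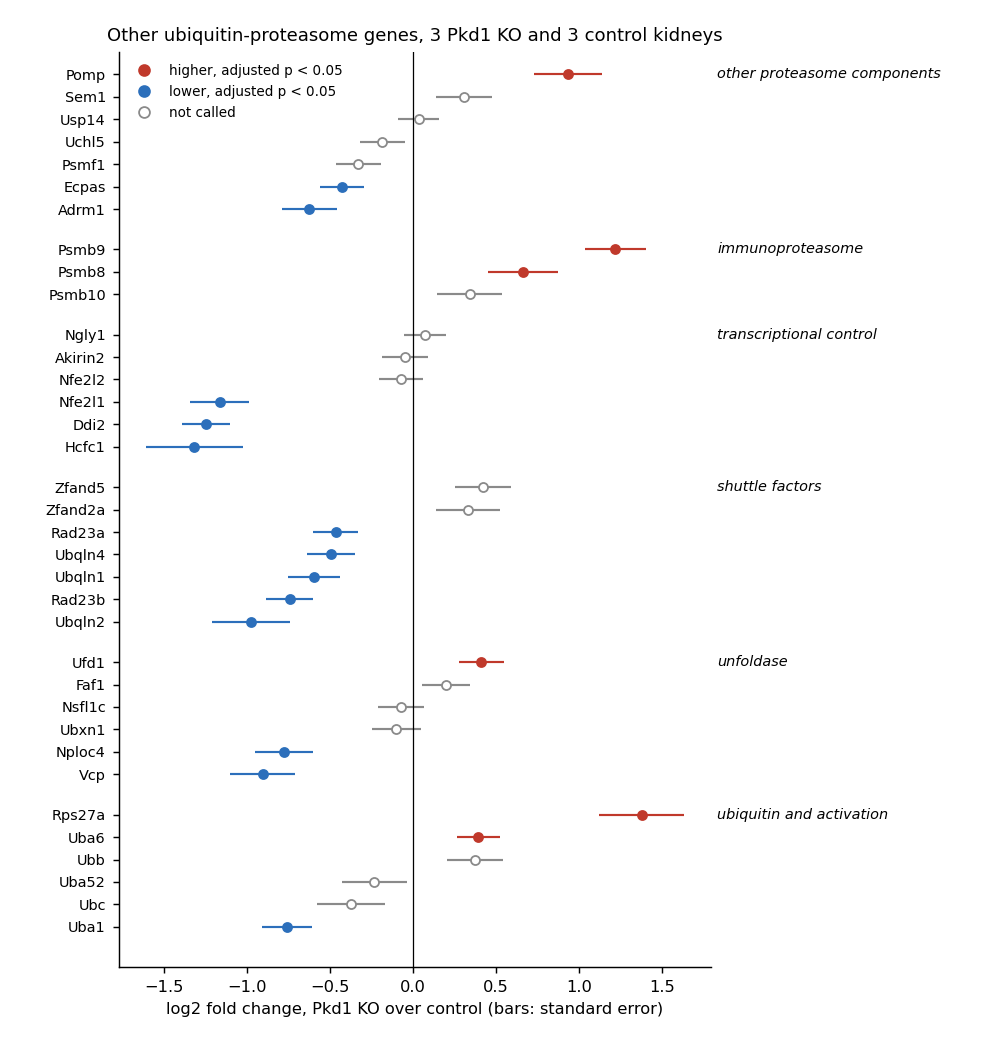
Log2 fold change (x axis, Pkd1 KO over control, bars are the standard error of the fit) of the 35 other pathway genes by role. Nfe2l1, Ddi2 and Hcfc1 lie farthest left, and Rps27a, Psmb9 and Pomp farthest right.

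The immunoproteasome genes replace the catalytic subunits in immune cells and under interferon. Psmb9 had 13.6, 16.8 and 16.7 CPM in Pkd1 KO and 6.82, 5.52 and 7.97 CPM in control kidneys, 1.22 on the log2 scale (edgeR adjusted p = 0.00266). Psmb8 had 9.72, 12.2 and 12.8 CPM in Pkd1 KO and 8.68, 5.38 and 7.94 CPM in control kidneys (0.66; edgeR adjusted p = 0.0308), and Psmb10 had 17.95, 18.9 and 22.03 CPM in Pkd1 KO and 16.7, 11.4 and 18.4 CPM in control kidneys (0.34; edgeR adjusted p = 0.179). Per kilobase, Psmb9 had 0.0271 to 0.0372 of the level of Psmb6 in Pkd1 KO and 0.0227 to 0.0267 of it in control kidneys. The ratio of Psmb8 to Psmb5 was 0.0342 to 0.0607 in Pkd1 KO and 0.0296 to 0.0448 in control kidneys, and that of Psmb10 to Psmb7 was 0.277 to 0.399 in Pkd1 KO and 0.272 to 0.376 in control kidneys. The ranges overlapped for Psmb8 and Psmb10 and were apart, by a small margin, for Psmb9.

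Counts were not separated by strand, so reads on bases shared with another gene could not be assigned by strand. The size and direction of any effect on these values were not tested. Of the 45 genes tested, 13 shared exon bases with another gene, and in 5 the shared part was over 10% of the exons: Psmb5 with Mir686 (12.1%), Psmb7 with Nek6 (11.8%), Psmd13 with Sirt3 (10.1%), Psmd9 with Gm26745 (25.5%) and Psmc3ip with Mlx (21.2%).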

How the data were processed

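Whole kidneys of 3 Pkd1 KO and 3 control mice were profiled. The authors deposited raw read counts per gene, 7 tables, 1 per sequencing run, with no normalization. Build GRCm39 and the tools STAR 2.6.1e, cutadapt 4.0 and FastQC 0.11.8 are named in the submitters' processing notes, which as given here name no gene annotation. The column that ignores strand was used, both runs of control 1 were summed, and 4 lines per table that name no gene (25.3% to 26.3% of reads in Pkd1 KO and 22.9% to 23.8% in control libraries) were left out. Groups came from the titles. Symbols and exon lengths came from GENCODE M21, joined by gene identifier (52073 of 56923 matched), promoters from RefSeq.

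Pkd1 KO was tested against control over all genes with edgeR 4.0.16 in R 4.3.3 (quasi-likelihood), with filterByExpr, TMM and Benjamini-Hochberg adjustment at 0.05. CPM used TMM library sizes. Standard errors are the log2 fold change over the square root of F. Offsets were a loess surface (span 0.3, symmetric family) of each library's deviation from the mean log2 CPM on GC content and log2 exon length, for 17785 genes. Scripts were tested on simulated counts. The proteasome genes, classes, pathway and marker lists were chosen with earlier results of these data known. Named in full were the catalytic subunits, Psmd14, Psme3, Psme4, Psmg1 to Psmg4, the highest and lowest gene of each class, and up to 4 called pathway genes a role; Psma3 and Psma6 were added after their values were seen. Alternatives were DESeq2 1.42.0, other scalings, no filter, single libraries left out, a replicate block and other offsets. Replicate numbers did not pair samples by the labels.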

Additional observations from a re-analysis of the deposited data

How the results depend on the processing

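Directions and calls of the proteasome genes moved mainly with the offsets and with single libraries. DESeq2's size factors changed no call of the 45 genes, and its Wald test changed 1. Upper-quartile scaling moved the median of all genes to 0.19, against 0.03, and called 6 regulatory particle genes higher; Psmd5, Psmd12, Psmd7 and Nfe2l2 then had 0.068, 0.083, 0.13 and 0.090 on the log2 scale. The core and regulatory medians (0.92 and 0.29) moved with that shift. A change of scaling moves all log2 fold changes by nearly the same amount, so it cannot test the difference between the 2 medians. Deviations of same-numbered samples of the groups had correlations of 0.038, -0.084 and -0.029. These show no strong shared deviation but cannot exclude a pairing, which the labels do not give. A replicate block gave 22 higher and 4 lower proteasome genes and 3 pathway genes higher.

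With one library left out, 2340 to 4877 genes were higher and 2731 to 5441 lower, both lowest without Pkd1 KO 2; of the proteasome genes 15 to 26 were higher and 2 to 4 lower. The core had 8 to 13 higher, the regulatory particle 2 to 6 higher and the assembly genes 2 to 3 higher, and the pathway list had 3 to 7 higher and 8 to 14 lower. Log2 fold changes of Psmc2 (-0.010 to 0.21), Psmd4 (-0.026 to 0.21) and Psmd7 (-0.14 to 0.026) changed sign, Psmc2 without control 2, Psmd4 without Pkd1 KO 1 or control 2, and Psmd7 without Pkd1 KO 3 or control 3.

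Offsets were also fitted with the replicate block, with a least-squares loess, from the longest coding transcript, and without control 2, the last 3 chosen after seeing the data. Values with the offsets of the report and with these follow in that order. The counts of all genes called were 2979, 2677, 2668, 2904 and 2932 higher and 3217, 2824, 3473, 3157 and 3167 lower. Proteasome genes called were 16, 15, 13, 12 and 13 higher and 8, 6, 8, 9 and 10 lower. Core genes called were 6, 6, 5, 5 and 6 higher and 1, 0, 1, 1 and 1 lower. Regulatory particle genes called lower were 5, 4, 5, 5 and 6. Assembly genes called were 3, 3, 2, 3 and 1 higher and 0, 0, 0, 1 and 1 lower. Of the genes whose direction turned, Psma2 had log2 fold changes of -0.064, -0.060, -0.082, -0.089 and -0.12. Psmb5 had -0.11, -0.12, -0.088, -0.097 and -0.16. Psmb7 had -0.41, -0.41, -0.42, -0.36 and -0.41. Psmc1 had -0.27, -0.27, -0.31, -0.29 and -0.28. Psmc2 had -0.33, -0.33, -0.37, -0.25 and -0.39. Psmg2 had -0.32, -0.32, -0.37, -0.42 and -0.42. Ubqln4 had 0.045, 0.044, 0.016, 0.11 and 0.030. Uba6 had -0.13, -0.13, -0.19, -0.035 and -0.049. Psmd1 had 0.040, 0.037 and 0.0037 with the first 3. From the longest coding transcript, Psmg1 had -0.040, Psmg3 had -0.10, Psma4 had -0.034, Psmb2 had -0.0023, Psmb3 had -0.19 and Psmd6 had -0.075. Without control 2, Psmg3 had -0.044, Psmb3 had -0.010 and Psmc4 had -0.034. The cause was not tested. With exon length taken from the longest transcript, the ratio of regulatory particle to core in Pkd1 KO kidneys moved to 0.604, against 0.649. Depth limits Psma8, with 3 to 23 reads a library, and Psmb11, with 1 read in all.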
